A study of Mus musculus with 6 samples.

Results

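The 10 genes described here are 7 mechanosensitive or osmosensitive cation channel genes or their partners (Trpv4, Piezo1, Piezo2, Trpm7, Trpc1, Pkd1 and Pkd2), the connexin gene Gja1 and the pannexin genes Panx1 and Panx3. They were chosen by name, and all 10 were found among the 43346 genes of the deposited table and among the 17554 genes with enough counts to be tested. RNA was sequenced from primary epiphyseal chondrocytes, the cells of the cartilage at the growing ends of bones, in 3 wild type and 3 Girk3-null libraries. All animals were 5 days old, of C57BL/6 strain and male per the labels. The null allele is labelled Girk3-/- or Girk3 KO, with no Cre driver named. Girk3 is a subunit of G protein-gated inwardly rectifying potassium channels, encoded by Kcnj9. The comparison asked how transcripts differ in chondrocytes without it.

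Chondrocytes live in a matrix that is compressed and swells with load, and they convert these forces into calcium signals. Trpv4 and the Piezo channels are the best known routes of this calcium entry in cartilage. Connexin 43, the product of Gja1, joins neighbouring cells through gap junctions and also forms hemichannels. Pannexins form large pores that release ATP, and Panx3 is known for its expression in prehypertrophic chondrocytes and osteoblasts.

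Library totals ranged from 34279516 to 60392837 counts. Kcnj9 had 0 counts in all 6 libraries, so the genotype could not be checked from its transcript. Summed over 4 Y-linked genes, Girk3-null replicate 1 held 16088 counts and every other library at most 7, and Xist had 19 counts there and 67346 to 144825 elsewhere. Only Girk3-null replicate 1 therefore matched the male label, and the difference of each of the 10 genes is also given without it. The 13 chondrocyte markers, such as Col2a1 and Acan, were counted in every library, with a summed level of 53481 to 88974 CPM in wild type and 82217 to 130425 CPM in Girk3-null libraries. CPM here are counts scaled to a fixed library total, with factors from the trimmed mean of M-values (TMM). In bulk samples such as these, fewer cells of a type and less RNA per cell cannot be told apart.

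By the deposited RPKM, which the authors scaled by library total and the gene length their table lists, Gja1 was the most abundant of the 10 genes in each of the 6 libraries. Gja1 averaged 230 ± 41.8 RPKM over the 6 libraries (mean ± SD, n = 6). Trpv4 followed at 85.5 ± 11.9 RPKM and Piezo1 at 45.2 ± 8.02 RPKM, and both held that place in all 6 libraries. No library of one gene reached the range of the next for these top 3 genes. The first place of Gja1 rests on its listed length of 3105 bases, against 10257 exonic bases over all its transcripts in GENCODE M21, while Trpv4 has 4076 in both. With the GENCODE length Gja1 averaged 69.6 ± 12.6 RPKM (SD, n = 6), below Trpv4 in 5 of 6 libraries. Which length fits the transcripts of these cells was not tested.

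Pkd1, Pkd2 and Trpm7 formed a middle group at 18.5 ± 1.94, 18.2 ± 1.34 and 15.6 ± 2.65 RPKM (SD, n = 6 each). Their order changed between libraries and their ranges overlapped. Panx3 averaged 11.2 ± 7.83 RPKM and held rank 7 in 5 libraries and rank 4 in Girk3-null replicate 2. Its range, 5.59 to 26.6 RPKM, overlapped that of Trpm7. Trpc1 (2.05 ± 0.479 RPKM), Panx1 (1.47 ± 0.479 RPKM) and Piezo2 (0.719 ± 0.159 RPKM) were the lowest in every library. Trpc1 exceeded Panx1 in 6 of 6 libraries although their ranges over libraries overlapped. Panx1 and Piezo2 did not overlap. Panx1 is listed at 2997 bases against 6030 in GENCODE, and with GENCODE lengths it averaged 0.729 RPKM and Piezo2 0.610 RPKM, with overlapping ranges.

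**Figure D1:**
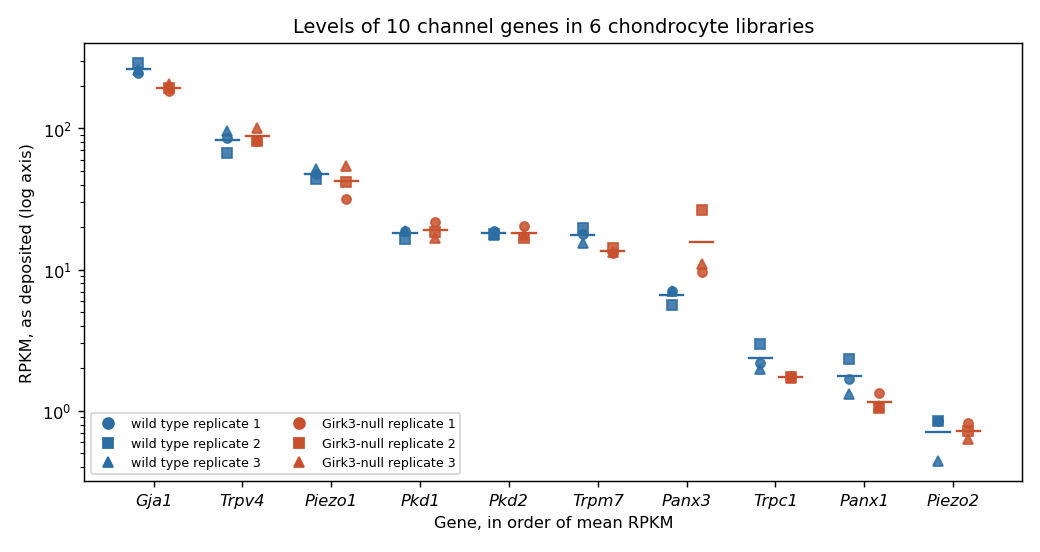
Deposited RPKM on a log axis for the 10 genes, with wild type libraries in blue, Girk3-null libraries in orange, one marker shape per replicate and a bar at each group mean. Gja1 lies between 183 and 289 RPKM and Piezo2 below 0.854 RPKM, and Panx3 has the widest spread, with Girk3-null replicate 2 at 26.6 RPKM.

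None of the 10 genes passed the genotype test at an adjusted p of 0.05 (edgeR's quasi-likelihood test, Benjamini-Hochberg adjustment over all 17554 genes), where 0.00570% of all genes tested passed. The smallest adjusted p among them was 0.291. At an unadjusted p under 0.05 there were 3, Panx3, Gja1 and Trpm7, against 14.5% of all genes tested. DESeq2 called 1, Panx3, against 2.24% of all genes it tested. The 2 genotypes did not overlap for 4 of the 10, Panx3 (higher in Girk3-null libraries) and Gja1, Trpm7 and Trpc1 (lower), against 20.0% of all genes tested (9.86% higher and 10.2% lower). With 10 genes, these counts are not read as particular to the group. Log2 fold changes, Girk3-null over wild type, were positive for 5 and negative for 5, with a median of 0.03 against 0.01 over all genes tested.

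**Figure D2:**
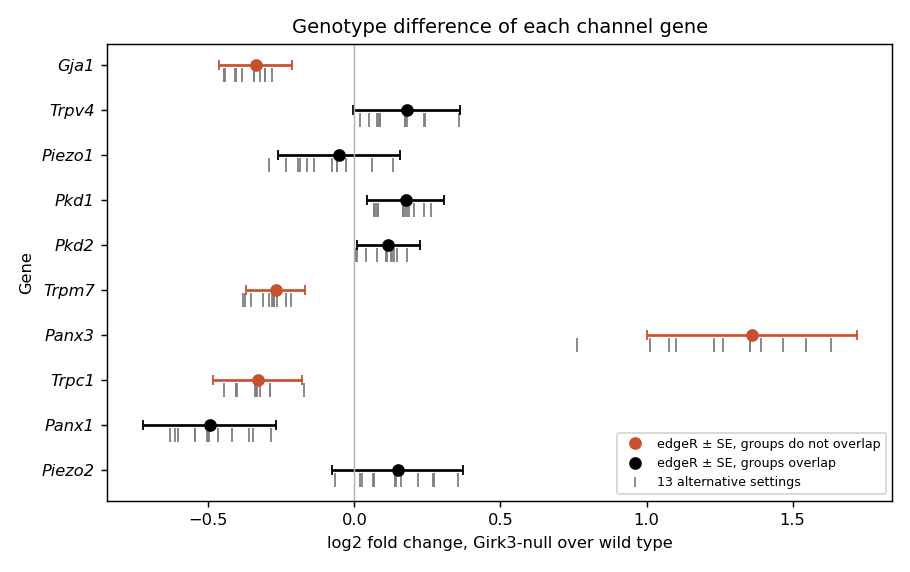
Log2 fold change of each gene, Girk3-null over wild type, with the standard error of edgeR's fit as bars; orange points mark genes whose groups do not overlap and grey ticks the 13 alternative settings. Panx3 stands at 1.36 with ticks from 0.76 to 1.63, and the other 9 genes lie between -0.50 and 0.18.

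Upstream sequence is shown for the 3 genes whose Girk3-null libraries all lay below the wild type libraries. Each stretch precedes the RefSeq transcription start (GRCm38.p6, the mm10 assembly), is written 5′ to 3′ on the gene's strand, and ends at the start site, or for Trpc1 27 bases before it, where a GENCODE transcript begins. Capitals mark the matches to the motifs searched. Gja1 is on the plus strand at chr10:56377050-56377299, Trpm7 on the minus strand at chr2:126876262-126876511, and Trpc1 on the minus strand at chr9:95750376-95750598.
Gja1: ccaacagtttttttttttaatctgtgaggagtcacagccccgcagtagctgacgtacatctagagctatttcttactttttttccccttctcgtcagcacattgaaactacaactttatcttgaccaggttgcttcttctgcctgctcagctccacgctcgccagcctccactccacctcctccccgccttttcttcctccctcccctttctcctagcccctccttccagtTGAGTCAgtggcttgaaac
Trpm7: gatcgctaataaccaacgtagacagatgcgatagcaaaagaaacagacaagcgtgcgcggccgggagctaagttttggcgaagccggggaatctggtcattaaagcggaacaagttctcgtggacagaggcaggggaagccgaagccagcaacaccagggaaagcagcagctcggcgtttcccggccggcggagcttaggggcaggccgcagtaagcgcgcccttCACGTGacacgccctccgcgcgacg
Trpc1: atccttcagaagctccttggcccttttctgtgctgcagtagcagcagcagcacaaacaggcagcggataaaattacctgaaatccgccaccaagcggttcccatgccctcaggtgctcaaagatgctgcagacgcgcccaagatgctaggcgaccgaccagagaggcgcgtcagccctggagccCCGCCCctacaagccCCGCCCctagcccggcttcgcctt

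The motifs were searched on both strands in the 250 bases before the start. The search covered the letters TGANTCA for AP-1 and the letters CACGTG for the E-box. It also covered the letters GGGCGG for the GC box, TATAAA for the TATA box, and TGTGGT for a RUNX site. The last was TGACGTCA for the cyclic AMP response element. Gja1 held 1 AP-1 match, starting 19 bases before the start site, and 6.75% of 32851 RefSeq promoter windows of the same length hold one. Trpm7 held 1 E-box match, as do 6.02% of windows. Trpc1 held 3 GC box matches, 2 of them in the printed stretch, and 32.7% of windows hold at least 1. The 3 windows shared no motif of the 6. These matches describe the letters of the window only. Of the 10 genes, 8 had their promoter read from the RefSeq table, and Panx3 and Piezo2 were not.

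Gja1, connexin 43 (ENSMUSG00000050953; chromosome 10, 56377300 to 56390419, mm10), measured 721, 832 and 828 CPM in wild type replicates 1 to 3. The Girk3-null libraries had 580.1, 616 and 687 CPM. Every Girk3-null library was below every wild type library. The means were 628 ± 54.4 and 794 ± 63.0 CPM (SD, n = 3 each), which is -0.34 ± 0.12 as log2 fold change ± standard error (edgeR adjusted p of 0.301). Without Girk3-null replicate 1 the log2 fold change was -0.28. On the RPKM scale Gja1 made up 55.1% to 62.1% of the summed level of the 10 genes in wild type libraries and 48.7% to 50.1% in Girk3-null libraries. With GENCODE lengths the shares were 27.7% to 33.9% and 23.0% to 24.0%.

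Cell type markers also differed in level. None of the 99 tested markers of 11 lists passed in edgeR, while 37 (37.4%) had an unadjusted p under 0.05, against 14.5% of all genes tested. DESeq2 called 18 of the 93 it tested (19.4%), against 2.24% of all genes it tested. For the counts without overlap that follow, the shares over all genes tested were 9.86% higher and 10.2% lower. Of 13 chondrocyte markers 12 had positive log2 fold changes (median 0.58), and Matn1, Matn3, Cnmd and Col11a1 were higher without overlap. Of 10 endothelial markers, 8 were lower in Girk3-null libraries without overlap, and the summed level of all 10 was 123 to 207 CPM in wild type and 29.4 to 99.6 CPM in Girk3-null libraries. None of the 10 was at 0. Of 10 skeletal muscle markers, 7 were lower without overlap (summed 26.7 to 66.8 against 11.1 to 31.0 CPM). Log2 fold changes were negative for 7 of 8 pericyte and smooth muscle markers (median -0.92), 9 of 9 tested erythroid markers (-1.22) and 7 of 7 tested Schwann cell and neuron markers (-0.80). Lower without overlap were 1, 0 and 1 of these, in the same order. Macrophage and leukocyte markers overlapped for all 9 tested (median -0.16). Of 7 tested osteoclast markers (median 0.04), 1 was lower without overlap. Fibroblast and perichondrium markers, of cells that also express Gja1, overlapped for all 8, with 6 negative (median -0.26). Postn (-1.29), Tnmd (-0.92) and Pdgfra (-0.32) had an unadjusted p under 0.05. The fibroblast sum, 5834 to 6345 CPM in wild type and 5874 to 8364 CPM in Girk3-null libraries, was mostly Dcn and Col3a1. The part of the cells of these lists in the lower Gja1, Trpm7 and Trpc1 was not tested.

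Trpm7, a channel fused to a kinase that carries magnesium and calcium (ENSMUSG00000027365; chromosome 2, 126791565 to 126876230), measured 190.3, 206 and 180.2 CPM in the wild type libraries. It had 152, 164 and 162 CPM in Girk3-null replicates 1 to 3. All Girk3-null libraries were below the wild type libraries, and the replicates of each group were close together. Log2 fold change and standard error were -0.27 ± 0.10 (edgeR adjusted p of 0.302). Without Girk3-null replicate 1 it was -0.23.

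Trpc1, a cation channel subunit linked to store-operated and stretch-activated currents (ENSMUSG00000032839; chromosome 9, 95705082 to 95750375), measured 16.4, 22.1 and 16.3 CPM in wild type libraries. The 3 Girk3-null libraries were nearly equal at 14.5, 14.4 and 14.6 CPM. The groups did not overlap, and wild type replicate 2 stood above the other wild type libraries. Log2 fold change and standard error were -0.33 ± 0.15 (edgeR adjusted p of 0.353). Leaving out wild type replicate 2 gave -0.17 and leaving out Girk3-null replicate 1 gave -0.33.

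Panx3 (ENSMUSG00000011118; chromosome 9, 37659902 to 37669222) had the largest difference of the 10 genes. It measured 17.7, 13.8 and 19.3 CPM in wild type replicates 1 to 3. The Girk3-null replicates had 25.9, 72.9 and 31.4 CPM. All Girk3-null libraries lay above the wild type libraries, and replicate 2 was far above the other 2. The means were 43.4 ± 25.7 against 16.9 ± 2.83 CPM (SD, n = 3 each), which is 1.36 ± 0.36 as log2 fold change ± standard error. The adjusted p was 0.291 in edgeR and 0.0101 in DESeq2, and over all 13 alternatives it ranged from 0.0101 to 0.814. Without Girk3-null replicate 2 the log2 fold change was 0.76 (adjusted p of 0.366 in edgeR), and without Girk3-null replicate 1 it was 1.63 (adjusted p of 0.512). The numbers in the sample titles fall below or above 200, and with a term for that split it was 1.08 (adjusted p of 0.383 in edgeR).

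Markers of hypertrophic chondrocytes, the enlarged cells that mineralise their matrix, stood higher without overlap for 5 of 8 genes, Ihh, Ibsp, Alpl, Phospho1 and Pth1r. Over all genes tested, 9.86% were higher and 10.2% lower without overlap. Alpl, a phosphatase of mineralising matrix, was highest in Girk3-null replicate 1 at 96.2 CPM, against 83.6 and 63.3 CPM in replicates 2 and 3. Ibsp, Phospho1 and Pth1r were also highest in Girk3-null replicate 1, at 82.6, 72.6 and 123 CPM. Of the 5, only Ihh, the hedgehog ligand of prehypertrophic cells, was highest in Girk3-null replicate 2. It measured 21.8 CPM there, against 12.8 and 11.4 CPM in replicates 1 and 3. Col10a1, the hypertrophic collagen, had overlapping groups and a negative log2 fold change (-0.29, adjusted p of 0.741 in edgeR). It measured 2455, 2048 and 3455 CPM in wild type and 976, 2338 and 3205 CPM in Girk3-null libraries. The mean log2 CPM of the 8 markers was 7.14 to 7.54 in wild type and 7.89 to 8.2 in Girk3-null libraries, without overlap. Their sum overlapped, at 11740 to 16501 and 13487 to 25304 CPM, and Spp1 alone gave 20951 CPM of it in Girk3-null replicate 1. Osteoblast markers did not overlap by mean log2 CPM (3.33 to 3.57 against 3.71 to 4.0), with Bglap2, Sp7 and Phex higher and Dmp1 lower without overlap. Their sum, 4068 to 5199 against 4405 to 6675 CPM, was mostly Col1a1 and Col1a2. Chondrocyte markers averaged 10.33 to 10.81 and 10.82 to 11.40 log2 CPM. The part of these 3 lists in the higher Panx3 was not tested.

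**Figure D3:**
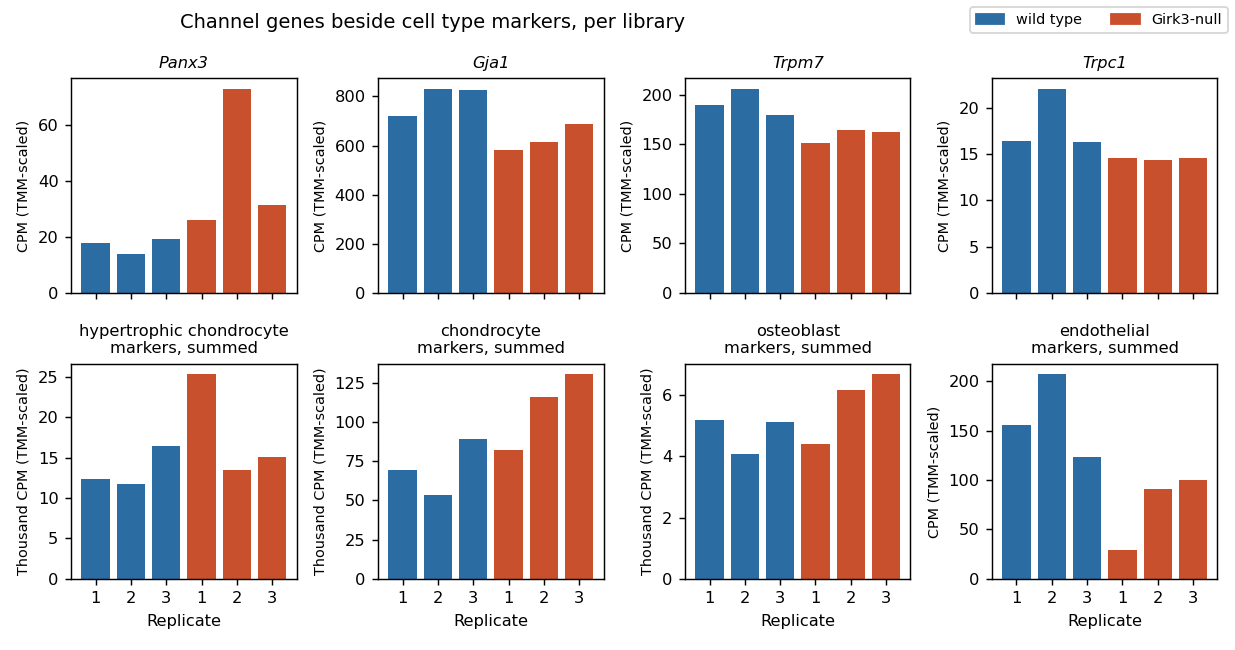
Bars give TMM-scaled CPM in each library for Panx3, Gja1, Trpm7 and Trpc1 (upper row) and the summed level of 4 marker lists (lower row, rescaled where the axis says so), wild type in blue and Girk3-null in orange. Panx3 peaks in Girk3-null replicate 2 at 72.9 CPM, and summed hypertrophic markers peak in Girk3-null replicate 1 through Spp1 at 20951 CPM. Without Spp1 the sum is 4295, 3638 and 5725 CPM in wild type replicates 1 to 3. In Girk3-null replicates 1 to 3 it is 4353, 4458 and 5450 CPM, so the groups overlap. Endothelial markers are lowest in Girk3-null replicate 1 at 29.4 CPM.

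The genes closest to Panx3 in pattern were Matn3, Wisp3 and Calml3, by the distance between centred log2 CPM over the 6 libraries among 12866 genes compared. Matn3, a cartilage matrilin and one of the chondrocyte markers, was at a distance of 0.53, and measured 165, 111 and 125 CPM in wild type and 188, 457 and 279 CPM in Girk3-null libraries. Wisp3 and Calml3 were at distances of 0.62 and 0.70. All 3 shared with Panx3 their highest level in Girk3-null replicate 2. Since they were picked as closest to Panx3 over these same libraries, the shared peak is not a separate result. Among the genes closest to Panx1 were Rbpms and Ebf3 (0.18 and 0.22). Piezo2 lay closest to Zfp185, Il10ra and Fam13c (0.25, 0.25 and 0.26). Panx3, Panx1 and Piezo2 had the largest spread of log2 CPM over the 6 libraries among the 10 genes, and the distances are descriptions.

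Panx1, the widely expressed pannexin (ENSMUSG00000031934; chromosome 9, 15005161 to 15045478), was low, with 111 to 351 counts per library. It measured 4.74, 6.46 and 4.05 CPM in wild type and 4.12, 3.23 and 3.46 CPM in Girk3-null libraries. The groups overlapped only through Girk3-null replicate 1 and wild type replicate 3. Log2 fold change and standard error were -0.50 ± 0.23 (edgeR adjusted p of 0.354), -0.60 without Girk3-null replicate 1 and -0.29 without wild type replicate 2.

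The 2 pannexins differed from each other in balance within each library. Panx3 exceeded Panx1 by 4.2, 2.41 and 5.36 times in wild type replicates 1 to 3, on the RPKM scale. In Girk3-null libraries the ratio was 7.09, 25.4 and 10.2. With GENCODE lengths each ratio was 1.56 times higher, and the difference between genotypes was the same, since a length cancels out. The groups did not overlap, and the log2 ratio differed by 1.70 (exact permutation test, two-sided, p = 0.1, the smallest that 3 against 3 allows, 0.3 after Benjamini-Hochberg adjustment over 3 ratios). Without Girk3-null replicate 2 the difference was 1.17, and without replicate 1 it was 2.09.

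Trpv4, the osmosensitive and load-sensitive calcium channel of chondrocytes (ENSMUSG00000014158; chromosome 5, 114622152 to 114658421), measured 329, 253 and 405 CPM in wild type libraries. It had 339, 342 and 436 CPM in Girk3-null libraries. The groups overlapped, and replicate 3 was the highest of each. The genotypes differed by 0.18 ± 0.18 on the log2 scale (± standard error, edgeR adjusted p of 0.655). It was 0.24 without Girk3-null replicate 1, 0.02 without wild type replicate 2, 0.36 without wild type replicate 3 and 0.05 without Girk3-null replicate 3.

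Piezo1 (ENSMUSG00000014444; chromosome 8, 122481698 to 122551329), a channel opened directly by membrane tension, measured 445, 404 and 527 CPM in wild type libraries. Girk3-null libraries spread more widely, at 322, 428 and 576 CPM, and their range enclosed the wild type range. The genotypes differed by -0.05 ± 0.21 on the log2 scale (± standard error, edgeR adjusted p of 0.920). Without Girk3-null replicate 1 it was 0.13. Exons of Ctu2, on the opposite strand, overlap 2441 exonic bases of Piezo1 in GENCODE M21, and Ctu2 had 297 to 548 counts against at least 18491 for Piezo1.

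Piezo2 (ENSMUSG00000041482), the Piezo channel best known from touch neurons, had 272 to 720 counts per library. It measured 11.5, 11.5 and 6.64 CPM in wild type and 12.1, 10.8 and 9.88 CPM in Girk3-null libraries. Wild type replicate 3 was lowest and the groups overlapped. The genotypes differed by 0.15 ± 0.22 on the log2 scale (± standard error, edgeR adjusted p of 0.770), and 0.07 without Girk3-null replicate 1. Piezo1 exceeded Piezo2 by 51.4 to 116 times in wild type libraries and 38.8 to 85.5 times in Girk3-null libraries on the RPKM scale. The log2 ratio differed by -0.27 (exact permutation test, two-sided, p = 0.7, 0.7 after adjustment over 3 ratios).

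Pkd1 and Pkd2 encode polycystin-1 and polycystin-2, which assemble in the primary cilium. Pkd1 (ENSMUSG00000032855; chromosome 17, 24549950 to 24596514) measured 251, 215 and 276 CPM in wild type and 315, 269 and 254 CPM in Girk3-null libraries. Pkd2 (ENSMUSG00000034462; chromosome 5, 104459450 to 104505819) measured 180.5, 168 and 185 CPM in wild type and 213, 176 and 189.7 CPM in Girk3-null libraries. Both were highest in Girk3-null replicate 1, and the groups overlapped for both. Log2 fold changes were 0.17 (standard error 0.13, adjusted p of 0.536 in edgeR) and 0.12 (0.11, 0.617). Without Girk3-null replicate 1 they were 0.08 and 0.04. Exons of Tsc2, on the opposite strand, overlap 693 exonic bases of Pkd1, with 2051 to 4002 counts for Tsc2 against at least 8155 for Pkd1.

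By deposited RPKM Pkd1 and Pkd2 were at nearly equal levels in each library. The ratio was 0.917 to 1.07 in wild type and 0.962 to 1.10 in Girk3-null libraries. With the GENCODE length of Pkd1 (17415 against 14170 listed bases) it was 0.746 to 0.894 over the 6 libraries. The log2 ratio differed by 0.06 between genotypes (exact permutation test, two-sided, p = 0.6, 0.7 after adjustment over 3 ratios).

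**Figure D4:**
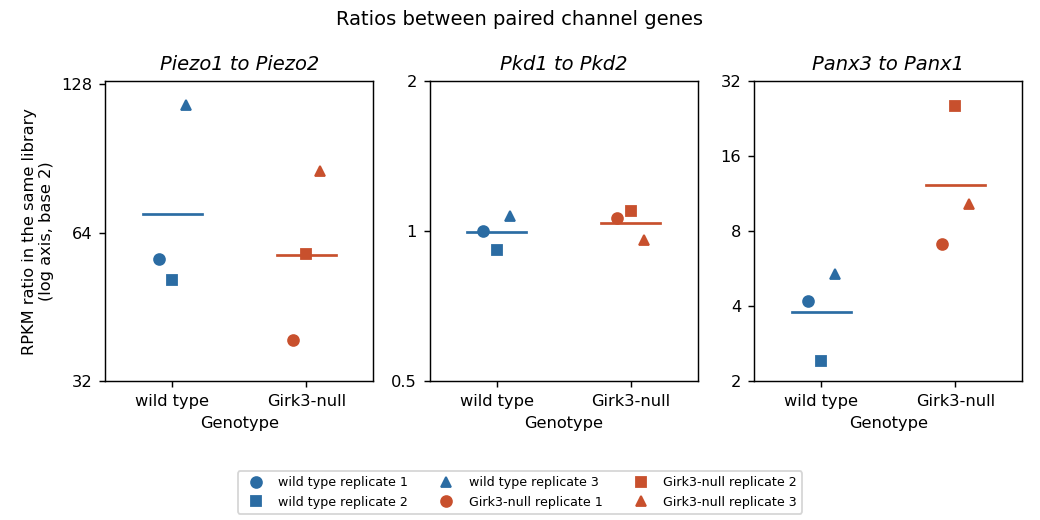
Ratio of deposited RPKM between paired genes in the same library on log axes, wild type in blue and Girk3-null in orange, with a bar at the geometric mean of each group. Panx3 to Panx1 is 2.41 to 5.36 in wild type and 7.09 to 25.4 in Girk3-null libraries, while the other 2 ratios overlap between genotypes.

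Related genes were read from the same fit, and 0 of 134 tested genes in 10 lists passed over all genes tested in edgeR. Of the 134, 30 (22.4%) had an unadjusted p under 0.05, against 14.5% of all genes tested. DESeq2 called 3 of the 127 it tested (2.36%), Adora1, Cav1 and Mcoln3, against 2.24% of all genes it tested. Genes named below only because their groups did not overlap were picked after their values were seen. The share without overlap ran from 13.3% (other stretch and swelling activated channels) to 36% (calcium handling) over the 10 lists. Of all genes tested it was 20.0% (9.86% higher and 10.2% lower). With few genes a list, these shares are not read as particular to any list. Other connexins were far lower than Gja1. The highest, Gjc1 (connexin 45) and Gjc3, averaged 6.58 and 6.31 RPKM. Of 19 other connexins 9 were tested, 7 of them with negative log2 fold changes, and their median was -0.57 against 0.01 over all genes tested. Gjc1 and Gjb2 were among those lower without overlap. Gjc3 had overlapping groups and a positive log2 fold change (0.41, adjusted p of 0.341 in edgeR). Besides Gjc1 and Gjc3, no tested connexin of this list averaged above 1.47 RPKM (Gjb2). Gjc1 measured 26.0 ± 5.38 against 39.1 ± 8.33 CPM (SD, n = 3 each; log2 fold change -0.59, adjusted p of 0.292 in edgeR).

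Partners of connexin 43 had a median of -0.27 over 8 tested genes, with Cav1 and Cdh2 lower without overlap. Cav1, the coat protein of caveolae, had 95.9 ± 22.9 CPM without Girk3 and 173 ± 25.9 CPM with it (SD, n = 3 each; log2 fold change -0.85, edgeR adjusted p of 0.291). It is also abundant in endothelial cells, whose markers are given above, and the part of any cell type in the lower Cav1 was not tested.

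The remaining pannexin, Panx2, averaged 0.836 RPKM and was higher without overlap (4.04 ± 0.501 against 2.10 ± 1.06 CPM, log2 fold change 0.95, adjusted p of 0.299 in edgeR). Calhm2, an ATP-permeable channel, had overlapping groups (0.52, adjusted p of 0.366). Of 7 genes in this list 4 were tested, with a median of 0.55.

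Genes that act on extracellular ATP and pyrophosphate included Nt5e (136 RPKM), which makes adenosine, and Enpp1 (73.2 RPKM), which makes pyrophosphate. Of 18 tested, P2rx7 and Adora1 were higher and P2ry1, Enpp1 and Adora2b lower without overlap, and the median was -0.20. Adora1, an adenosine receptor, averaged 20.3 ± 9.63 CPM in wild type and 42.8 ± 12.4 CPM in Girk3-null libraries (SD, n = 3 each). Its log2 fold change was 1.08 (edgeR adjusted p of 0.291). Ankh, the pyrophosphate exporter, had a log2 fold change of -0.45 (adjusted p of 0.304).

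Other TRP channels averaged below Trpm7. The lysosomal channels Mcoln2 and Mcoln1 were the highest at 14.7 and 8.68 RPKM. Of 22 genes 12 were tested, Mcoln2 and Mcoln3 were higher and Trpc6 and Trpm6 lower without overlap, and the median was 0.15. Mcoln3 had a log2 fold change of 0.71 and Mcoln2 of 0.30 (adjusted p of 0.291 and 0.299 in edgeR). Of 7 other polycystin genes 3 were tested with a median of 0.34. Pkd1l1 averaged 0.444 RPKM with a log2 fold change of -0.08, and Pkd2l2, at 0.146 RPKM, was higher without overlap (1.25, adjusted p of 0.291).

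Among 25 other stretch-activated or swelling-activated channels and their partners, 15 were tested and the median was 0.05. Tmem63a, an osmosensitive channel, averaged 44.4 RPKM, close to Piezo1, with a log2 fold change of 0.05. Ano6, a calcium-activated lipid scramblase, was lower without overlap (161 ± 23.3 against 218 ± 23.2 CPM, log2 fold change -0.44, adjusted p of 0.291 in edgeR). Scnn1a, an epithelial sodium channel subunit, was higher without overlap at 0.287 RPKM (0.76, adjusted p of 0.333).

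Calcium handling genes had a median of 0.04 over 25 tested, with Orai3 and Calm3 higher and 7 lower without overlap. Rcan1, a calcineurin inhibitor induced by calcineurin signalling, was among the lower (115 ± 13.2 against 144 ± 6.71 CPM, log2 fold change -0.33, adjusted p of 0.292 in edgeR). Camk2d had a log2 fold change of -0.40 (adjusted p of 0.314). Calm2 (195 RPKM) and the calcium pump gene Atp2a2 (59.2 RPKM) were the most abundant and overlapped between genotypes.

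Cilium genes had a median of 0.03 over 25 tested. Evc (0.60, adjusted p of 0.291 in edgeR), Ift27 (0.40, 0.307) and Bbs2 were higher and Arl13b (-0.27, 0.341) and Cep290 lower without overlap. That is 20% of the list, the same as over all genes tested (20.0%). Ift20 was the most abundant at 29.3 RPKM. YAP and TAZ targets and partners had a median of -0.06 over 15 tested. Tead3 (0.44, adjusted p of 0.299 in edgeR) and Crim1 (0.31, 0.299) were higher and Lats1 lower without overlap, again 20% of the list. The YAP targets Ccn2 (listed as Ctgf) and Ccn1 (listed as Cyr61) had log2 fold changes of 0.17 and -0.16 and overlapping groups, at 505 and 335 RPKM.

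**Figure D5:**
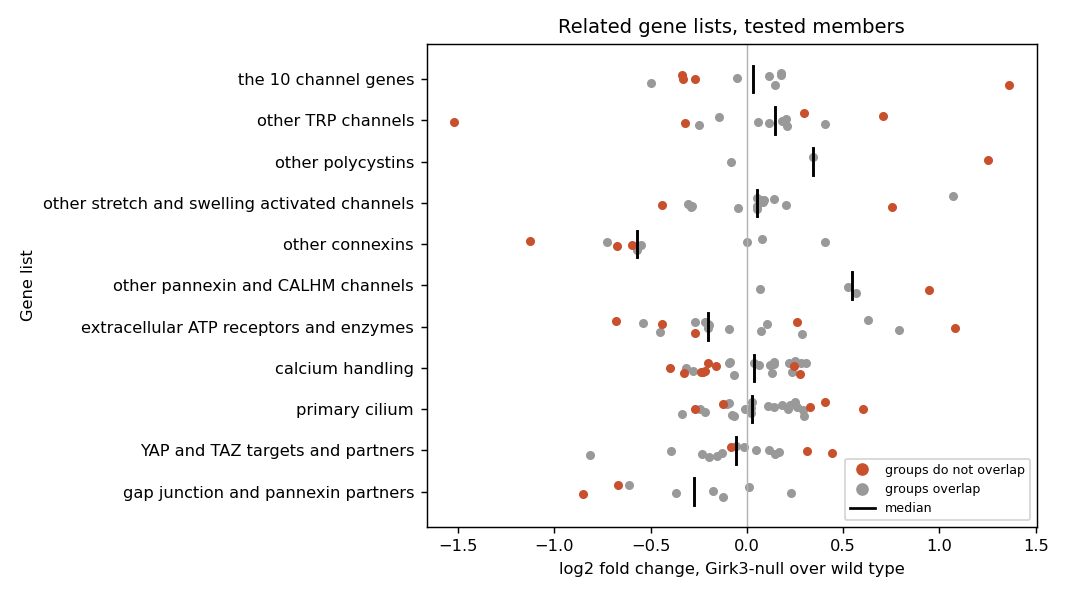
Log2 fold change, Girk3-null over wild type, of each tested gene of the 10 channel genes and of 10 related lists, with orange points for groups that do not overlap, grey points for groups that do, and a black bar at each list's median. The other connexins have the lowest median at -0.57, and the 10 channel genes have theirs at 0.03.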

How the data were processed

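The 6 libraries were made from polyadenylated RNA with TruSeq kits, per the labels' protocols. The deposited table holds raw counts per gene and RPKM, which the authors scaled by gene length and library total, per the file headers. The tools bcl2fastq 2.19.0 and STAR 2.5.2b and the build mm10 are named in the submitters' processing notes. How reads were counted, with which annotation and strand setting, is not given in the sources used here. Antisense overlaps are therefore uncertain. The deposited RPKM equalled counts over total and a length 1 base above that listed.

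Groups came from the genotype label; replicates were numbered in deposit order, so numbers pair no samples. The series text calls them biological replicates. Genes passing filterByExpr (minimum count 10, minimum total 15) were tested with edgeR 4.0.16 (TMM, quasi-likelihood, genotype only) in R 4.3.3, with Benjamini-Hochberg adjustment over 17554 genes. Alternatives used DESeq2 1.42.0, limma 3.58.1 on log2(RPKM + 0.1) and log2(RPKM + 1), other scaling, no filter, a title number covariate and leaving out each library. On data simulated for this comparison over 17554 genes, 81.8% of 2-fold changes were recovered, as were 99.8% of 4-fold changes. The changes were placed only in genes averaging above log2 CPM 1. Simulated counts used the fitted dispersion trend, without each gene's own spread or differences between libraries in cells or sex. These shares are therefore not the power of the test in the real libraries. Counts of genes whose groups do not overlap were repeated without TMM factors and without each library, and levels per length were repeated with GENCODE M21 exonic lengths, alternatives chosen after seeing the data. The listed length differs from the GENCODE exonic length most for Gja1 and Panx1.

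The 10 genes and the lists were chosen with earlier results of these data known. All 289 list genes were matched, 10 by an older symbol. All 10 channel genes were named. From each related list, genes passing were to be named, or else the 2 with the smallest p (mean log2 CPM no lower than 0), and the 2 with the highest RPKM. The closest patterns were taken for the 3 channel genes with the largest SD of log2 CPM, among genes averaging log2 CPM 1 or more. Some genes that this rule names are not reported here.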

Additional observations from a re-analysis of the deposited data

How the results depend on the processing

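edgeR called 1 gene of all tested, and 1 with DESeq2 size factors. The count was 0 with library size only, with limma on log2(RPKM + 0.1) or log2(RPKM + 1) and with the title number covariate, 53 without the filter on low counts, 340 in DESeq2, and 0 to 74 when 1 library was left out (74 without wild type replicate 3). Of the 10 channel genes DESeq2 called 1, Panx3, and the other settings called 0. Of 130 refitted fold changes 127 kept their direction. Piezo1 reversed to 0.06 without wild type replicate 3 and to 0.13 without Girk3-null replicate 1. Piezo2 reversed to -0.067 without wild type replicate 3. Over the left-out libraries Piezo1 ranged from -0.29 to 0.13 and Piezo2 from -0.067 to 0.27. With the title number covariate Piezo1 was at -0.23 and Piezo2 at 0.35. The channel genes without overlap numbered 4 to 7 when 1 library was left out, and 23.4% to 45.8% of all genes tested did not overlap there. The 7 came without wild type replicate 3, the setting with 45.8%. With library size only there were 4, against 21.3% of all genes tested (5.90% higher and 15.4% lower). The log2 ratio of Piezo1 to Piezo2 differed by -0.56 to 0.10, being 0.10 without wild type replicate 3 and 0.01 without Girk3-null replicate 1. The cause of these shifts was not tested. With GENCODE exonic lengths the mean log2 ratio of RPKM reversed from 1.42 to -0.30 for Gja1 over Trpv4 and from 0.02 to -0.27 for Pkd1 over Pkd2. Library size only moved the median of all genes to -0.09 from 0.01. No paired analysis was possible because the groups share no numbers in the sample titles. Precision is limited by 3 libraries a group, and for Panx1 and Piezo2 by 111 to 720 counts per library.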

Other observations

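Asic3, an acid-sensing channel subunit read with the stretch-activated channels and named after its values were seen, varied more between libraries than between genotypes. It measured 2.43, 6.66 and 17.3 CPM in wild type replicates 1 to 3 and 39.8, 5.94 and 9.23 CPM in Girk3-null replicates 1 to 3. The groups overlapped (log2 fold change 1.07, standard error 0.80, adjusted p of 0.530 in edgeR).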
